A study of Arabidopsis thaliana with 20 samples.

Results

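Trimethylation of lysine 36 on histone H3 (H3K36me3) was profiled by chromatin immunoprecipitation and sequencing (ChIP-seq) in *Arabidopsis thaliana* seedlings of the wild type (WT, Col-0) and of *h3.3kd*, plants with reduced amounts of the histone variant H3.3. The comparison rests on 4 H3K36me3 libraries of the 20 in the series, 2 per genotype, chosen by antibody and genotype alone. The 4 libraries of total H3 from the same genotypes served as a second reference, and the 4 libraries of H3K4me3, a mark of active gene starts, are given beside them. *h3.3kd* combines T-DNA insertions in *HTR4* (*htr4-2*) and *HTR8* (*htr8-2*), which are homozygous, with an artificial microRNA against *HTR5* transcribed from the *HTR5* promoter. HTR5 is therefore knocked down and not deleted, and the remaining H3.3 and the replicative variant H3.1 are still present. All plants were 10 days old and grown on plates, and the tissue was whole seedlings. The libraries pool many cell types, so a mark present in fewer cells and a lower level per cell cannot be told apart. Nothing in the labels says whether replicates were separate cultures or which *h3.3kd* line was used, so the spread between replicates may be technical in part.

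H3K36me3 is placed on the nucleosomes of transcribed genes by SET domain enzymes, of which SDG8 is the main one for the trimethyl state in *Arabidopsis*, and is bound by the chromodomain proteins MRG1 and MRG2. In plants the mark lies over the 5′ part of active genes, just past the peak of H3K4me3, unlike in animals, where it builds up toward the 3′ end. H3.3 is the variant of H3 that is inserted outside replication, mostly in transcribed genes, and lysine 36 is carried by H3.3 and H3.1 alike.

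The microRNAs are shown because they define what was reduced in the knockdown. Both designed sequences and the best-matching stretch of *HTR5* are given 5′ to 3′, and capitals in the *HTR5* stretch mark mismatches, that is bases other than the Watson-Crick partner, with a G:U pair counted as a mismatch.
amiR-HTR5-I: tatctatttagaaaaccgccc
HTR5 site of amiR-HTR5-I: gggTggttttctaaatagata
amiR-HTR5-II: ttccagtagacttacgcgctg
HTR5 site of amiR-HTR5-II: cagcTcgtaagtctactggaG
The sites lie on the minus strand of chromosome 4 in TAIR10.1, the first at chr4:18557484-18557504 in an exon outside the coding part and the second at chr4:18558197-18558217 in a coding exon. Each microRNA is 21 nucleotides long, and the sites hold 1 and 2 mismatches. In *HTR4* the best stretches had 8 and 5 mismatches, and in *HTR8* 9 and 8. The microRNAs act on the transcript, so the reads over *HTR5* in these libraries are no measure of the knockdown.

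A read that runs into inserted DNA does not map, so the longest stretches without a read start in the H3K36me3 and H3 libraries of the knockdown were sought in the genes with insertions. In *HTR8* (AT5G10980, chromosome 5, 3472405 to 3473570), 95 bp held 62 and 53 read starts in the WT H3K36me3 libraries and 0 in both *h3.3kd* ones, and 17 and 15 in WT H3 against 0 and 0. In *HTR4* (AT4G40030, chromosome 4, 18555532 to 18557106), 47 bp held 24 and 23 H3K36me3 read starts in WT and 0 and 0 in *h3.3kd*. The counts of 0 in these knockdown libraries follow from how the stretches were chosen, while the WT and H3K4me3 counts had no part in the choice. The *h3.3kd* H3K4me3 libraries had 0 read starts in the *HTR8* stretch, and 1 and 2 in the *HTR4* stretch against 20 and 81 in WT.

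Depth was 27138447 and 18221156 listed reads for WT H3K36me3 replicates 1 and 2, and 10829576 and 13413898 for *h3.3kd*. After removal of organelle reads, which made up at most 0.812% (chloroplast) and 0.2% (mitochondria) of a library, 10789563 to 26992341 nuclear reads remained. A level is given below as reads per kb for every 1000000 nuclear reads (RPKM), and differences are log2 of *h3.3kd* over WT. Without an added reference chromatin the levels are relative within a library, so a change of the mark in the whole genome would not be seen. The H3 library of WT replicate 2, the smallest of the H3, H3K4me3 and H3K36me3 libraries with 8688846 reads, stood apart from the other 3 H3 libraries. Its H3 level was 2.28 on the log2 scale in pericentromeric bins without a coding gene, against 2.94 to 3.27 in the others, and 3.105 in intergenic bins, against 2.34 to 2.64. Differences divided by H3 are therefore given per replicate pair for the regions where they bear most on the reading. Where no pairs are given, the value is the mean of the pairs, and their signs may differ.

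At gene starts, H3K36me3 was low before the transcription start site (TSS), climbed steeply just after it and declined toward the 3′ end in all 4 libraries. Across the 26207 protein-coding genes with a length of 500 bp or more, the highest 50-bp bin began 600 bp after the TSS in WT replicate 1 and 350 bp after it in WT replicate 2. In *h3.3kd* it began at 550 bp in replicate 1 and at 350 bp in replicate 2, so the place of the summit followed the replicate number and not the genotype. The summit was 14.2 and 17.5 RPKM in WT and 18.4 and 18.1 RPKM in *h3.3kd*, and both *h3.3kd* libraries were above both WT libraries. H3K4me3 had its summit at 350 or 400 bp in every library.

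**Figure D1:**
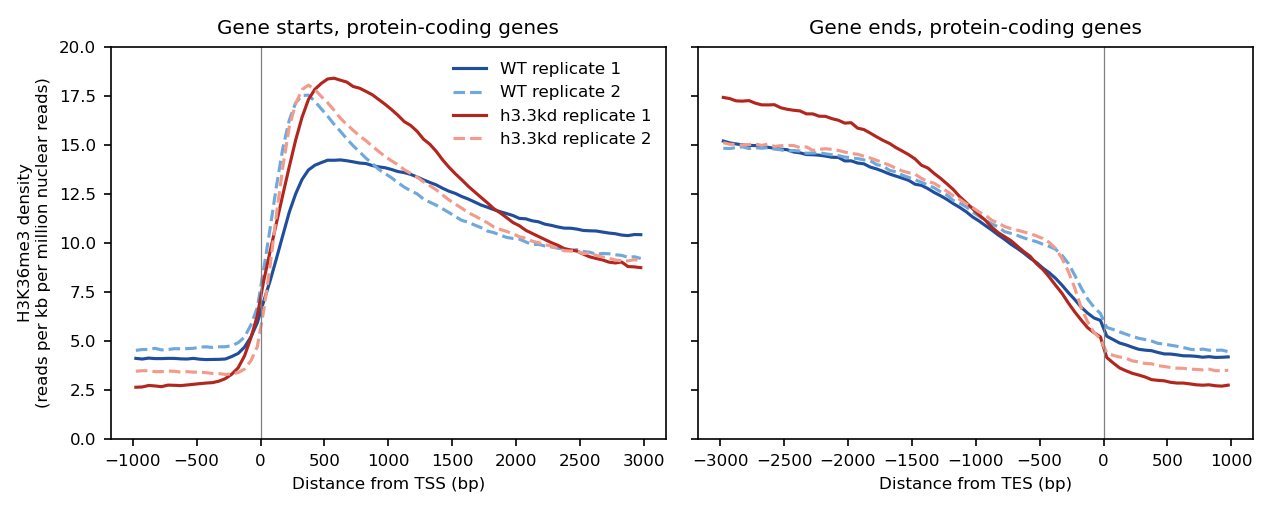
Mean H3K36me3 density in 50-bp bins, in RPKM, against distance in bp from gene starts (left) and gene ends (right) over protein-coding genes, 1 line per library. Flanking bins that overlap another gene are left out. The WT summits reach 14.2 and 17.5, those of h3.3kd 18.4 and 18.1, and both h3.3kd lines run below both WT lines outside genes.

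The first 1000 bp of genes carried slightly more H3K36me3 in *h3.3kd*. With libraries paired by replicate number, which need not mark a batch, nearly all of the difference lay in pair 1. The level was 12.7 and 14.9 RPKM in WT replicates 1 and 2, and 15.9 and 15.1 RPKM in *h3.3kd*. The groups did not overlap, but the gap between the nearest libraries, WT replicate 2 and *h3.3kd* replicate 2, was small. On the log2 scale the means were 3.78 ± 0.17 in WT and 3.95 ± 0.05 in *h3.3kd* (SD, n = 2 each), a difference of 0.17, with an exact two-sided permutation p of 0.333. This is the smallest p that 2 against 2 libraries allow, so no regional comparison here can reach 0.05. The difference was 0.32 in pair 1 and 0.01 in pair 2. It was 0.05 without WT replicate 1 and 0.29 without WT replicate 2, and 0.13 and 0.21 without *h3.3kd* replicates 1 and 2. Divided by H3 it was 0.24 in pair 1 and -0.07 in pair 2. H3K4me3 over the same bases differed by 0.09 and 0.05.

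In pair 1 and in the mean of the pairs the excess was largest between 500 and 1000 bp from the TSS and smaller further into the gene. In that 500-bp window the level was 14.1 and 14.9 RPKM in WT and 17.9 and 15.7 RPKM in *h3.3kd*, a log2 difference of 0.21 (0.35 and 0.07 in the pairs). From 0 to 500 bp the groups overlapped, with 11.4 and 15.0 RPKM in WT and 14.0 and 14.5 RPKM in *h3.3kd*, a difference of 0.13 (0.30 and -0.05). Between 1000 and 1500 bp it was 0.16 (0.22 and 0.09), so that pair 2 had its largest value there, and between 1500 and 2000 bp 0.05, both with overlapping groups. Divided by H3, the mean difference was 0.09 from 0 to 500 bp (0.24 and -0.07 in the pairs). From 500 to 1000 bp it was 0.08 (0.24 and -0.07). The flattest profile was that of WT replicate 1. In genes of 5 to 7 kb, its mean level from 2500 to 3000 bp was still 83.7% of its summit, against 50.2% in WT replicate 2 and 48.8 and 48.1% in *h3.3kd*.

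Before the TSS, both knockdown libraries were lower than both WT libraries. The 500 bp upstream, outside other genes, had 4.54 and 5.15 RPKM in WT and 3.84 and 3.62 RPKM in *h3.3kd*. The log2 means were 2.27 ± 0.13 and 1.90 ± 0.06 (SD, n = 2 each), a difference of -0.38 (-0.24 in pair 1, -0.51 in pair 2, exact permutation p = 0.333). Total H3 in this region differed by 0.08 in pair 1 and by -0.88 in pair 2, where the library that stood apart is the denominator. Divided by H3, the H3K36me3 difference was -0.32 in pair 1 and 0.37 in pair 2, of opposite sign, with a mean of 0.02. The upstream deficit of H3K36me3 therefore held in both pairs relative to nuclear reads, and relative to H3 only in pair 1.

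The region past gene ends behaved like the region before starts. The 500 bp after the transcription end site (TES) had 4.76 and 5.28 RPKM in WT and 3.46 and 4.04 RPKM in *h3.3kd*. The log2 difference was -0.42 (-0.46 and -0.38, exact permutation p = 0.333), and -0.53 and 0.31 after division by H3. The last 500 bp of genes had 7.32 and 8.41 RPKM in WT and 6.80 and 7.87 RPKM in *h3.3kd*. Here the groups overlapped, and the difference of -0.10 (-0.11 and -0.10) was smaller than the spread between replicates of 0.14 in WT and 0.15 in *h3.3kd* (SD, n = 2 each).

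**Figure D2:**
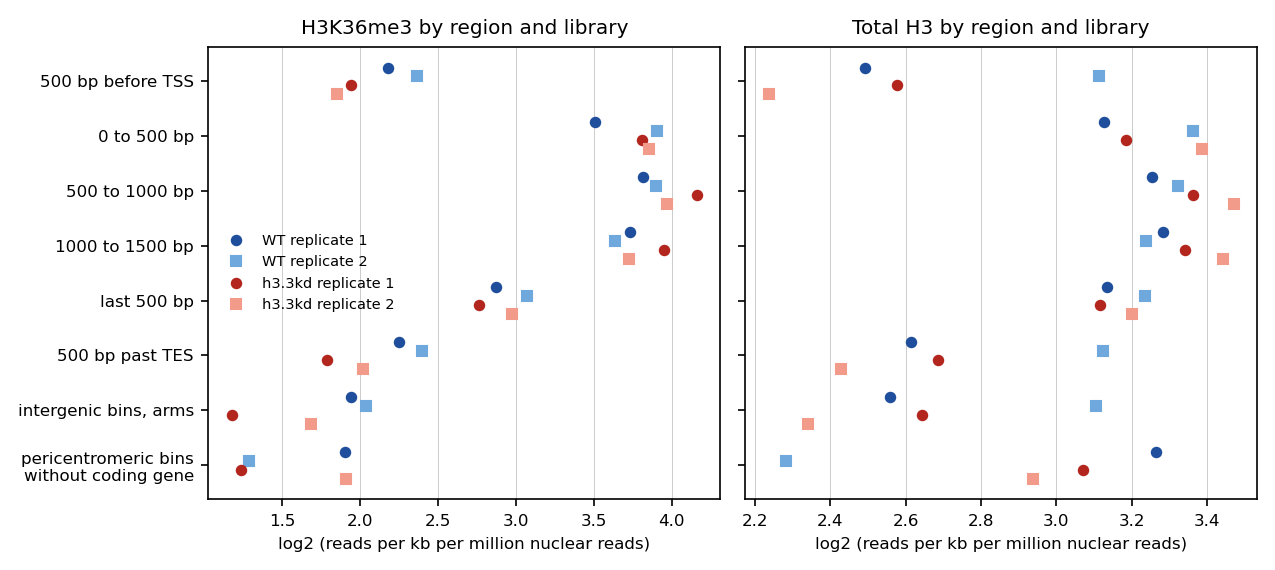
Level of H3K36me3 (left) and total H3 (right) in 8 regions, as log2 RPKM, 1 point per library (circles replicate 1, squares replicate 2, blue WT, red h3.3kd). Both h3.3kd points lie left of both WT points for H3K36me3 before starts, past ends and in intergenic bins, whereas in H3 the WT replicate 2 square lies far from the other 3 points there.

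Relative to nuclear reads, longer genes showed larger differences at both ends, in opposite directions. In the first 1000 bp the log2 difference was -0.03 in genes of 0.5 to 1 kb (3140 genes), 0.10 at 1 to 2 kb, 0.18 at 2 to 3 kb and 0.34 in genes of 7 kb or more (494 genes). In the longest class the level was 18.9 and 20.3 RPKM in WT and 27.2 and 22.4 RPKM in *h3.3kd*, with pair differences of 0.52 and 0.15. From 2 kb upward the groups did not overlap in any length class, each with an exact permutation p of 0.333, and below 2 kb they did. At 2 to 3 kb the nearest libraries were almost level (16.66 RPKM in WT replicate 2 and 16.67 RPKM in *h3.3kd* replicate 2), and the groups overlapped after the correction for removed duplicates and with reads moved by 75 bp (exact permutation p = 0.667 in each). Divided by H3, the longest class differed by 0.39 and 0.05, and the shortest by -0.08 and -0.16. In the last 500 bp the difference went from -0.04 at 0.5 to 1 kb to -0.24 at 5 to 7 kb (-0.29 and -0.19 in the pairs), with overlapping groups in each class. Total H3 there differed by 0.08 at 0.5 to 1 kb and by -0.14 at 7 kb or more. Divided by H3, the last 500 bp showed no steady trend with length. The difference was then -0.12 at 0.5 to 1 kb, -0.06 at 2 to 3 kb, -0.13 at 5 to 7 kb and -0.09 at 7 kb or more. The H3K4me3 difference over the first 1000 bp ranged from 0.03 in the shortest class to 0.09 in the longest.

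**Figure D3:**
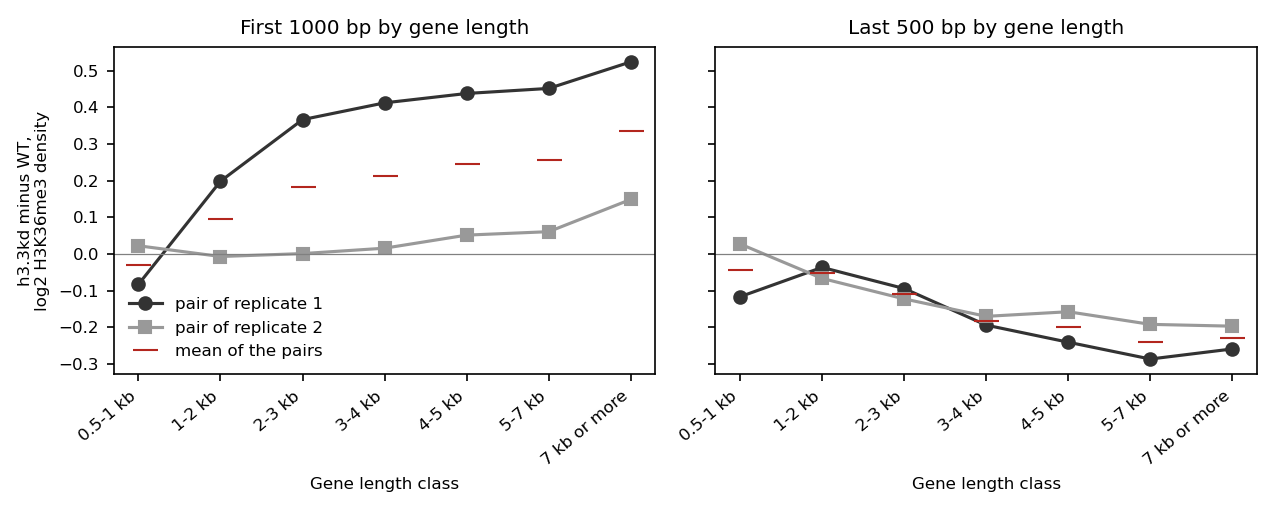
Difference between h3.3kd and WT in log2 H3K36me3 density over the first 1000 bp (left) and the last 500 bp (right), by gene length class, for each replicate pair and their mean. In the first 1000 bp pair 1 reaches 0.52 and pair 2 reaches 0.15 in genes of 7 kb or more; in the last 500 bp both pairs lie below 0 from 1 kb upward.

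Among genes of like length the difference over the first 1000 bp did not grow with the number of exons. Summed over the genes of all lengths, the difference was 0.16 in single-exon genes (4777), 0.12 at 2 exons, 0.12 at 3 to 5, 0.18 at 6 to 10 and 0.25 at 11 or more. The median difference of single genes was lower, at 0.02, -0.01, 0.02, 0.13 and 0.21 in the same order, and in pair 1 it was -0.05 at 1 exon and -0.07 at 2, where the sums gave 0.26 and 0.24. Among genes of 1.5 to 2.5 kb the difference of the sums was instead largest at 1 exon. Single-exon genes differed by 0.22 (0.38 and 0.07 in the pairs), those with 2 exons by 0.16, with 3 to 5 by 0.12, with 6 to 10 by 0.13, and the 45 genes with 11 or more by 0.11. Within this length range, WT levels were lower in genes with 1 exon (12.5 and 15.9 RPKM) than in those with 6 to 10 (14.6 and 16.5 RPKM). Total H3 over the first 1000 bp of these genes also differed most at 1 exon (0.16). Divided by H3, the differences were 0.06 at 1 exon, 0.06 at 2, 0.05 at 3 to 5, 0.07 at 6 to 10 and 0.03 at 11 or more. At 1 exon the pairs were then at 0.33 and -0.21. In the last 500 bp of the same genes, relative to nuclear reads, the differences ran from -0.04 at 1 exon to -0.10 at 11 or more.

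Far from genes the pattern of the flanks continued. In 15627 intergenic 1-kb bins of the chromosome arms, H3K36me3 was at 3.84 and 4.11 RPKM in WT and at 2.26 and 3.22 RPKM in *h3.3kd*. Both knockdown libraries were below both WT libraries. The log2 difference was -0.56 (-0.77 in pair 1, -0.35 in pair 2, exact permutation p = 0.333). It was -0.54 where the bin centre lay under 1 kb from a gene (7130 bins), -0.57 at 1 to 2 kb and -0.59 at 2 kb or more (2735 bins), and between -0.57 and -0.54 on each of the 5 chromosomes. These distance classes were set after the values had been seen. Divided by H3, the intergenic difference was -0.85 in pair 1 and 0.41 in pair 2. H3K4me3 in the same bins differed by -0.35 in pair 1 and -0.02 in pair 2.

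Pericentromeric chromatin, which is rich in transposons and poor in genes, gave no difference that followed the genotype. In 15947 bins without a protein-coding gene the level was 3.74 RPKM in WT replicate 1 and 2.44 RPKM in WT replicate 2. In *h3.3kd* it was 2.35 RPKM in replicate 1 and 3.75 RPKM in replicate 2, so each knockdown library matched the WT library of the other number. The pairs differed by -0.67 and 0.62, and the mean difference of -0.02 was far below the spread of 0.44 in WT and 0.48 in *h3.3kd* (SD, n = 2 each, exact permutation p = 1). The same crossing was seen on all 5 chromosomes, with pair 1 between -0.73 and -0.64 and pair 2 between 0.53 and 0.82. Total H3 in these bins differed by -0.19 in pair 1 and 0.66 in pair 2, and H3K36me3 divided by H3 differed by -0.48 and -0.04. In the 3456 pericentromeric bins with a protein-coding gene the level was 6.43 to 7.39 RPKM, with pair differences of -0.13 and 0.14.

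Ratios taken within a library do not depend on its total. The first 1000 bp held 2.097 and 2.11 times the density of the last 500 bp in WT, in genes of 2 kb or more, and 3.08 and 2.37 times in *h3.3kd*. The log2 ratio was 1.07 ± 0.01 in WT and 1.43 ± 0.27 in *h3.3kd* (SD, n = 2 each), a difference of 0.36 (0.55 and 0.17, exact permutation p = 0.333). For total H3 this ratio differed by 0.16 and 0.14, and H3K36me3 over H3 by 0.39 and 0.03. The first 500 bp held 2.51 and 2.91 times the upstream density in WT and 3.64 and 4.01 times in *h3.3kd*, a difference of 0.50 (0.54 and 0.46). The first 1000 bp held 3.31 and 3.64 times the intergenic density in WT and 7.03 and 4.69 times in *h3.3kd*, a difference of 0.73 (1.09 and 0.37). In both of these ratios the groups did not overlap, both pairs had the same sign, and pair 2 turned negative after division by H3 (-0.44 and -0.48). H3K4me3 showed the same signs with smaller values, 0.11 and 0.10 for the first ratio and 0.44 and 0.07 for the second.

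Gene by gene, almost nothing passed the test. Over the first 1000 bp limma called 1 of 25996 genes, 0.00385%, at an adjusted p under 0.05, and that gene was lower in *h3.3kd*. No gene was called higher. Before adjustment, 880 genes with a higher and 116 with a lower level had p under 0.05. This lean was smaller with scaling by the median of ratios (498 higher and 347 lower) and with a replicate block (216 and 200), and turned after division by H3 (266 and 326). Limma-voom called 1 gene in each direction. The median log2 difference was 0.06. In the 500 bp before the TSS the limma test passed 0 of 25894 genes (0.0%). Unadjusted, 33 were higher and 2825 lower, and limma-voom called 2 of the latter direction. The lean turned with the median of ratios (1553 higher and 393 lower) and after division by H3 (613 and 115). In the last 500 bp limma passed 0 of 18970 genes (0.0%). Unadjusted, 113 were higher and 571 lower, and limma-voom found 1 higher. With the median of ratios the unadjusted counts were 402 and 397, and divided by H3 348 and 679. Of 116686 bins of 1 kb, 1 was called (0.000857%), again lower, with 629 higher and 2991 lower unadjusted and 2 lower by limma-voom. With the median of ratios the unadjusted counts of bins were 1835 and 2479. Scaling by the median of ratios moved the median difference from 0.06 to -0.01 over the first 1000 bp and from -0.34 to -0.03 upstream. In the last 500 bp it went from -0.17 to 0.0022, and in bins from -0.16 to 0.03. The factors of this scaling were taken from each set of windows itself, so a median near 0 followed from the method. Counts by this scaling are therefore relative to the typical window of the set. The counts of called windows also rested on the set of libraries. Without *h3.3kd* replicate 2, 585 genes were called lower over the first 1000 bp, 1997 upstream and 669 in the last 500 bp, and 2143 of the 1-kb bins, and without *h3.3kd* replicate 1, 619 were called lower upstream. Without WT replicate 1 or 2 the first 1000 bp had 0 genes called lower. Between 0 and 13 genes were called higher over the first 1000 bp with any 1 library left out. Without WT replicate 1, 4 bins were called lower, and without WT replicate 2, 36.

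With levels scaled to nuclear reads, the same lean shows in how often both knockdown libraries lay beyond both WT libraries. Genes and bins of the same libraries are not replicates, so these shares are a description and no further test. Over the first 1000 bp 23.8% of genes were above and 9.45% below. Upstream 3.54% were above and 42.2% below, in the last 500 bp 6.19% above and 27.8% below, and in the 1-kb bins 8.76% above and 28.3% below. Among intergenic arm bins 70% were below and 0.213% above. The upstream shares include 10559 genes whose window overlapped another gene. Their median difference was -0.15, with 0.07 in pair 1 and -0.33 in pair 2, and 26.4% were below. In the 15335 genes whose upstream window was free it was -0.45, with -0.40 and -0.50 in the pairs, and 53.1% were below.

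The called gene was AT5G42280, which encodes a protein with a cysteine- and histidine-rich C1 domain (chromosome 5, 16905202 to 16908059, minus strand, 2858 bp, 3 exons). Its first 1000 bp held 409 and 301 H3K36me3 reads in the WT replicates, against 49 and 67 in the knockdown, which is 15.2 and 16.7 RPKM against 4.54 and 5.03 RPKM. It fell by 1.71 on the log2 scale (SE 0.35, limma adjusted p = 0.018), with -1.72 in pair 1 and -1.71 in pair 2. The called bin, from 16907001 to 16908000, lies in the same gene, with 412 and 301 reads in the WT replicates, against 47 and 65 in the knockdown (-1.77, SE 0.28, limma adjusted p = 5.36e-05). Total H3 over the first 1000 bp was 8.38 and 8.10 RPKM in WT and 10.7 and 9.59 RPKM in *h3.3kd*, so H3 itself was not lower there. H3K4me3 there was 18.7 and 26.5 RPKM in WT, and 5.54 RPKM in *h3.3kd* replicate 1 but 27.1 RPKM in replicate 2. H3K36me3 was thus low in both *h3.3kd* libraries and H3K4me3 in 1 of 2. The neighbour AT5G42270, which overlaps its 3′ end on the other strand, had 25.7 and 31.5 RPKM of H3K36me3 in WT and 37.3 and 32.9 RPKM in *h3.3kd* and was not called. The call for AT5G42280 over the first 1000 bp was lost without WT replicate 1 (limma adjusted p = 1.0) or WT replicate 2 (0.79), in thinned reads (0.23), and in the limma interaction with H3 (0.097), with log2 differences between -2.01 and -1.62 over all settings. The call for the bin was lost without WT replicate 1 (limma adjusted p = 0.13), without WT replicate 2 (0.086) and in the interaction (0.42).

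**Figure D4:**
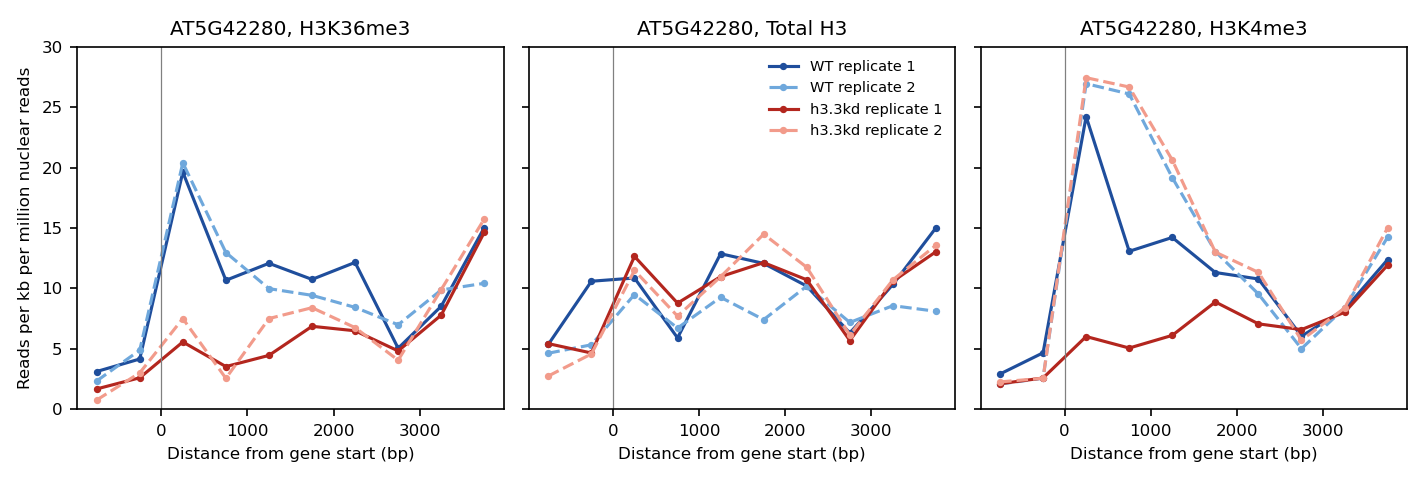
Density of H3K36me3, total H3 and H3K4me3 along AT5G42280 in 500-bp pieces, in RPKM, against distance from the gene start in bp, 1 line per library. Over the first 1000 bp both h3.3kd libraries have low H3K36me3 (4.54 and 5.03 against 15.2 and 16.7), H3 is at 8.10 to 10.7 in all 4, and H3K4me3 is low in h3.3kd replicate 1 (5.54) but not in replicate 2 (27.1).

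Since fewer than 5 genes were called in each direction, the genes with the widest gap between the nearest libraries of the groups are given as a description, among those with a mean of at least 100 reads. Below WT, AT4G11410, an NAD(P)-binding Rossmann-fold protein, had 16.3 and 16.5 RPKM in WT and 7.32 and 7.43 RPKM in *h3.3kd*, a log2 difference of -1.14 in both pairs (limma adjusted p = 0.42). AT3G24100 had 18.3 and 21.1 RPKM in WT and 10.5 and 9.23 RPKM in *h3.3kd* (-0.99). FUR1 (AT4G05120), a nucleoside transporter, had 10.9 and 12.7 against 5.10 and 6.38 RPKM (-1.03), and the pentatricopeptide repeat gene AT5G06400 13.3 and 12.6 against 6.02 and 7.43 RPKM (-0.94). Above WT, the log2 differences were 0.83 to 0.95. AT4G34950, of the major facilitator family, had 12.3 and 13.3 RPKM in WT and 23.4 and 22.9 RPKM in *h3.3kd*, and AT3G55580, with a regulator of chromosome condensation repeat, 6.71 and 8.09 against 13.6 and 15.2 RPKM. *ABI4* (AT2G40220), a transcription factor of abscisic acid signalling, had 6.82 and 7.10 RPKM in WT and 11.7 and 13.3 RPKM in *h3.3kd*. The kinase gene AT5G58520 had 18.9 and 20.2 against 38.0 and 33.1 RPKM. AT3G33530, a WD-repeat gene of 8423 bp with 22 exons, had 26.0 and 24.2 against 47.1 and 42.7 RPKM. None of these 5 was called (limma adjusted p from 0.65 to 0.99). Divided by H3, the differences of the genes below WT were -1.18 in AT4G11410, -0.51 in AT3G24100, -1.02 in FUR1 and -1.14 in AT5G06400. Above WT they were 0.44 in AT4G34950, 0.90 in AT3G55580, 0.51 in *ABI4*, 0.58 in AT5G58520 and 0.53 in AT3G33530.

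The genes with the most H3K36me3 in WT did not have the widest differences. The 5 highest were AT5G52530, the ribosomal protein gene AT1G77940, the scaffold protein gene AT1G18080 (ATARCA), AT5G01710 and AT5G39570. AT5G52530 had 36.6 and 42.9 RPKM in WT and 57.5 and 46.2 RPKM in *h3.3kd*. Over the 5 genes the log2 difference was 0.20 to 0.57, with 0.45 to 1.14 in pair 1 and -0.05 to 0.31 in pair 2.

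With libraries paired by replicate number, genes whose starts carried more H3K4me3 in WT showed a larger difference in pair 1 only. Genes were split into 5 classes of equal size by their H3K4me3 in the WT libraries, a division made after the H3K36me3 values had been seen. In the lowest class (5200 genes) the median H3K36me3 difference was -0.50 in pair 1 and 0.03 in pair 2. In the highest class (5199 genes) it was 0.57 in pair 1 and 0.08 in pair 2, and pair 2 stayed between -0.07 and 0.08 in every class. Median levels in the highest class were 21.5 and 25.5 RPKM in WT and 31.7 and 26.6 RPKM in *h3.3kd*, and in the lowest 5.26 and 5.60 against 3.61 and 5.74 RPKM. Both knockdown libraries were above both WT libraries in 62.2% of genes of the highest class and in 2.21% of the lowest, beside 23.8% over all genes.

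**Figure D5:**
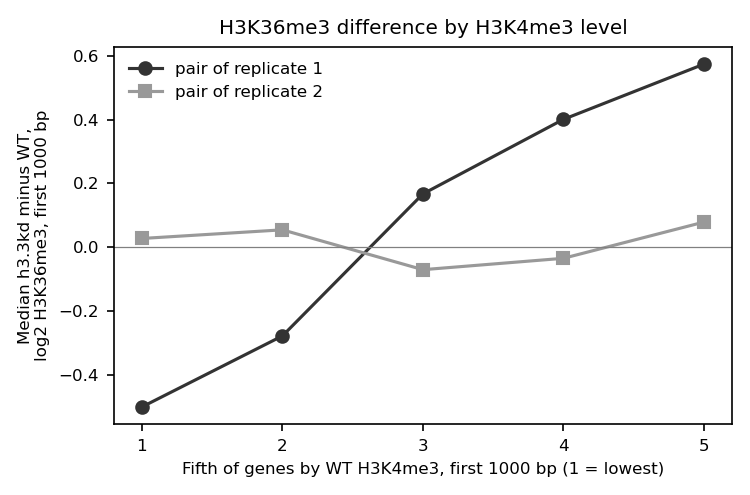
Median difference between h3.3kd and WT in log2 H3K36me3 over the first 1000 bp (vertical axis) in 5 equal classes of genes ordered by WT H3K4me3 over the same bases (horizontal axis, 1 is lowest), for each replicate pair. Pair 1 runs from -0.50 to 0.57 and pair 2 stays between -0.07 and 0.08.

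Among the H3.3 genes themselves, *HTR4* and *HTR8* were lower and *HTR5* higher over the first 1000 bp, and none was called. *HTR4* had 16.6 and 23.3 RPKM in WT and 8.34 and 15.1 RPKM in *h3.3kd* (-0.80), and *HTR8* 14.8 and 20.8 against 6.21 and 12.2 RPKM (-1.0015, limma adjusted p = 0.63). *HTR5* (AT4G40040) had 17.2 and 27.1 RPKM in WT and 35.96 and 38.0 RPKM in *h3.3kd* (0.78). Divided by H3, the differences were smaller, at -0.56 in *HTR4*, -0.48 in *HTR8* and 0.41 in *HTR5*. The 500 bp upstream of *HTR5* had 13.2 and 21.4 RPKM in WT and 21.9 and 23.9 RPKM in *h3.3kd* (0.44), where reads from the resident gene and from the transgene promoter cannot be told apart.

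The genes that write and read the mark differed little. *SDG8* (AT1G77300), the main trimethylase, had 20.9 and 20.8 RPKM over its first 1000 bp in WT and 28.7 and 20.9 RPKM in *h3.3kd*, with pair differences of 0.46 and 0.01. Over 8 genes (*SDG8*, *SDG26*, *SDG4*, *SDG7*, *SDG24*, *SDG25*, *MRG1* and *MRG2*) the log2 difference ranged from -0.14 in *SDG24* to 0.33 in *MRG1*, with a median of 0.22 beside 0.06 over all genes. None was called, and in none did the groups stand apart.

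Other histone genes were mixed. Of the 5 H3.1 genes, *HTR1*, *HTR2* and *HTR13* had both knockdown libraries above both WT libraries, which 23.8% of all genes also had. *HTR2* (AT1G09200) had 18.6 and 23.6 RPKM in WT and 33.1 and 31.5 RPKM in *h3.3kd* (0.62), and the median of the list was 0.46. *HTR3* and *HTR9* differed by 0.04 and 0.12. The linker histone gene *HON1* (AT1G06760) had 17.6 and 19.96 RPKM in WT and 25.1 and 34.1 RPKM in *h3.3kd* (0.64), *HON2* differed by 0.27, and *HON3* by 0.54 with overlapping groups. The 8 genes of H4 had a median of -0.08, from -0.55 to 0.09, with overlapping groups in each. None of these 16 genes was called.

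As a check of the labelled tissue, marker genes were ranked by the mark in WT. The leaf genes *RBCS1A*, *LHCB1.3*, *LHCB2.1*, *PSBO1* and *RCA*, which act in photosynthesis, ranked between the percentiles 41.0 and 90.2 of all genes by WT H3K36me3 over the first 1000 bp. Storage protein genes of the seed (*CRA1*, *CRU2*, *CRU3*, *OLEO1*), the pollen genes *VGD1* and *HTR10*, and the floral regulators *AP3*, *PI* and *AG* ranked between 5.11 and 43.3. The leaf genes *RBCS1A* (45.2), *LHCB1.3* (41.4) and *LHCB2.1* (41.0) were below the middle of all genes, close to *OLEO1* (43.3). Only *RCA* (70.3) and *PSBO1* (90.2) ranked well above the genes of other organs, so the check is weak. *LHCB1.3* had 7.41 and 10.9 RPKM in WT and 10.5 and 19.8 RPKM in *h3.3kd* (0.68), with overlapping groups. The list medians were 0.26 for leaf, 0.02 for seed, -0.03 for pollen and -0.48 for flower genes, and no marker was called. The share of these cell types in a result was not tested.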

How the data were processed

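ChIP-seq libraries were made from 10-day-old seedlings, with 2 replicates for each antibody and genotype. According to the submitters' processing notes and the methods of the study, the authors mapped reads to TAIR10 with Bowtie and allowed up to 2 mismatches. They kept unique hits and removed reads at the same coordinates. The values deposited by the authors are positions of single reads, without normalization, and in H3K4me3 replicate 2 they have no strand and no organelle reads. Depth is the number of listed reads.

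Reads were taken as 50 bp long, placed by their midpoint on TAIR10.1 and scaled to 1000000 nuclear reads. Regions were summed over genes and compared by exact two-sided permutation tests. Flanking bins of 50 bp that overlap a gene were left out of regions and profiles, not of the gene-by-gene windows. The pericentromere is the stretch of each chromosome where the smoothed share of protein-coding sequence was under 30%, and 1546 bins of 119144 without any H3 read were left out of the bin classes. Windows averaging 10 reads or more were tested with limma 3.58.1 (lmFit, then eBayes with a mean-variance trend, R 4.3.3) on log2(scaled reads + 0.1), adjusted after Benjamini and Hochberg and called under 0.05. Differences on this scale understate those of low windows. The fit was tested on simulated data. Other steps used pandas 2.3.3 and numpy 2.4.6 under Python 3.11.15, with figures drawn in matplotlib 3.10.9.

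Named genes are all members of the short lists, called genes, the 5 genes per direction with the widest gap between groups where fewer than 5 were called, and the 5 genes highest in WT. The members and lists were chosen with earlier results of these data known. MicroRNA sequences come from the primers of the study and gene models from RefSeq. Settings tried were division by H3, other scalings, limma-voom, other pseudocounts and filters, moved reads, a correction for removed duplicates, thinned reads, a replicate block and leaving out each library. The H2A.Z and H1 libraries were not used here.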

Additional observations from a re-analysis of the deposited data

How the results depend on the processing

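The median of single genes over the first 1000 bp was below 0 with the median of ratios (-0.0083) and without WT replicate 1 (-0.044). It was also below 0 after division by H3 and in the interaction with H3 (-0.011 in each), and above 0 in the other settings. For sums over genes or bins, the median of ratios, limma-voom and the replicate block were not run. In the settings run on sums, the mean differences over the first 1000 bp (0.05 to 0.29) and in intergenic bins (-0.81 to -0.22) kept their sign. So did that of the ratio of the first 1000 bp to the last 500 bp. After division by H3 the pairs had opposite signs over the first 1000 bp and in intergenic bins. The upstream difference turned to 0.022 when divided by H3 of the same replicate. The pericentromeric difference turned to 0.0071 after the correction for removed duplicates and to 0.017 with a threshold of 20%, and lay between -0.36 and 0.31 when 1 library was left out. In the same runs the last 500 bp differed by -0.21 to 0.0034, and the ratio of the first 1000 bp to pericentromeric bins by -0.23 to 0.62. The cause was not tested. After division by H3 of the same replicate, the groups overlapped over the first 1000 bp (exact permutation p = 0.667), upstream (1), past gene ends (0.667) and in intergenic bins (0.667), and in every length class from 2 kb upward.

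Counts of called windows were small and unstable. Over the first 1000 bp, 1 gene was called higher by limma-voom, 1 after division by H3 and 1 in the interaction with H3; 4 were called lower with scaling by the median of ratios, 2 after division by H3, 0 in the interaction and 0 in thinned reads. Upstream, 5 were higher with the median of ratios and 5 after division by H3, and 2 lower by limma-voom. In the last 500 bp, 1 was higher by limma-voom, 1 after division by H3 and 1 after the correction for duplicates. In 1-kb bins, 3 were higher and 8 lower after division by H3, 0 lower in the interaction, 2 lower by limma-voom and 2 lower with reads moved by 75 bp. Without a filter on low windows, 33 and 42 genes were called higher and lower over the first 1000 bp, 14 and 96 upstream, 12 and 10 in the last 500 bp, and 112 and 388 bins.

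With 1 library left out, calls ranged from 0 to 13 higher and 0 to 585 lower over the first 1000 bp, 0 to 8 and 0 to 1997 upstream, 0 to 11 and 0 to 669 in the last 500 bp, and 0 to 7 and 1 to 2143 for bins. With 1 library in a group, its spread is assumed to be that of the other group.

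Replicate numbers are shared between the genotypes, but nothing says that they mark a batch. Deviations of same-numbered libraries correlated at -0.08, -0.10, -0.02 and -0.13 over the first 1000 bp, upstream, last 500 bp and bins. With a replicate block, 0 genes were called higher and 1 lower over the first 1000 bp, 0 upstream, 0 and 1 in the last 500 bp, and 3 and 3 bins. With the numbers crossed in the block, a choice made after seeing the data, 2759 were called higher and 45 lower over the first 1000 bp, 1 and 0 upstream, 1 and 1 in the last 500 bp, and 1 and 43 bins.

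Depth limits the low regions most, since 8670 of 25894 upstream windows had a mean of at least 50 reads.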

Other observations

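Genes that the study lists as misregulated in RNA of *h3.3kd* were set beside all genes, with the H3.3 genes left out. Of 672 genes listed as downregulated, 657 had enough reads over the first 1000 bp. Their median H3K36me3 was 6.93 and 8.87 RPKM in WT and 5.75 and 8.55 RPKM in *h3.3kd*, and their median log2 difference was -0.13, beside 0.06 over all genes (-0.22 in pair 1 and -0.08 in pair 2). Both *h3.3kd* libraries were below both WT libraries in 20.4% of them, beside 9.45% of all genes. Of 277 genes listed as upregulated, 268 had enough reads, with a median of 8.67 and 10.6 RPKM in WT and 9.55 and 11.5 RPKM in *h3.3kd* and a median difference of 0.13 (0.16 and 0.14). Here 32.8% had both *h3.3kd* libraries above both WT libraries, beside 23.8% of all genes. None of either list was called. The listed genes carry less of the mark than all genes, whose medians were 11.3 and 13.9 RPKM in WT, and the part of this level in the values was not tested. In the 500 bp upstream the median difference was -0.50 in downregulated and -0.38 in upregulated genes, beside -0.34 over all genes. Both *h3.3kd* libraries were below both WT libraries in 58.4%, 49.6% and 42.2% of them. Divided by H3, the upstream medians were -0.14, -0.05 and 0.0043.

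Pseudogenes without a transposon note in the annotation, 4012 with enough reads, followed the crossing of the pericentromeric bins. Their median was 4.52 and 2.83 RPKM in WT and 3.02 and 4.95 RPKM in *h3.3kd*, with median differences of -0.51 in pair 1 and 0.64 in pair 2. A transposon note was found in only 23 pseudogenes, so this class may also hold transposon genes. Genes with 1 exon, 4718 with enough reads, had medians of 7.34 and 9.65 RPKM in WT and 6.86 and 10.1 RPKM in *h3.3kd*.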
